A study of Mus musculus with 6 samples.

Results

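The collagen genes are described here in differentiating mouse myoblasts that model myotonic dystrophy type 1 (DM1), with and without overexpression of the microRNAs miR-322 and miR-503. A gene was taken as a collagen gene when its name was Col, a number, the letter a and a number, with nothing following, which gave 44 of the 55421 genes in the table. The members were grouped as 11 fibrillar, 6 basement membrane, 9 FACIT (fibril-associated collagens with interrupted triple helices) and 18 other collagen genes. RNA-seq was performed on 3 libraries of each of 2 cell lines on day 4 of differentiation, and the 6 libraries held between 73532084 and 92157388 estimated counts. Both lines were derived from C2C12, mouse myoblasts that form myotubes in low serum, and both stably carried a GFP reporter with an expanded CUG repeat, the DM1 model. The control line also carried the empty pLL4.0 vector and the other line carried pLL4.0 with a miR-322/-503 fragment. Each group was 1 drug-selected line, so a difference between the lines and an effect of the microRNAs cannot be told apart. The study's methods state that assays had biological as well as technical replicates unless noted otherwise, but the labels do not say which kind the 3 libraries of a group are, and the p-values measure the spread between these libraries. In such bulk libraries, fewer cells of a type and less RNA per cell cannot be told apart either.

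Collagens are secreted proteins made of 3 chains wound into a triple helix, and each chain is the product of its own gene. Fibrillar collagens assemble into the cross-linked fibers of connective tissue, type IV collagens form the sheet of the basement membrane that wraps each muscle fiber, and FACIT collagens sit on the surface of fibers. Myoblasts in culture make collagen themselves, and in muscle most interstitial collagen comes from fibroblasts.

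The mature microRNAs are shown first because the cells were made to overexpress them, with the seed (bases 2 to 8) in capitals. miR-322-5p and miR-503-5p both lie on the minus strand of chromosome X of GRCm38, at chrX:53054306-53054327 and chrX:53054027-53054049. miR-29a-3p, on the minus strand at chr6:31062673-31062694, was added for comparison because the miR-29 family is known to bind many collagen mRNAs. Its level was not measured here. The sequences are those of RefSeq.
mmu-miR-322-5p: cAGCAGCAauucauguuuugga
mmu-miR-503-5p: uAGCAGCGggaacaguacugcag
mmu-miR-29a-3p: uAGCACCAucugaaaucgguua

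The 7 bases that pair with each seed were searched in the longest 3'UTR of each gene in GENCODE M21. All 44 collagen genes had such a 3'UTR, with a median length of 1049 bases for the tested collagen genes and 1174 bases for all tested genes. The miR-322 match TGCTGCT was found in 9 of the 44 collagen genes (20.5%), compared with 24.4% of the 13416 tested genes with a 3'UTR. The miR-503 match CGCTGCT was found in 0 of the 44 collagen genes, compared with 4.87% of tested genes. The miR-29a match TGGTGCT was found in 25 of the 44 collagen genes (56.8%), compared with 15.6% of tested genes. The 9 collagen genes with the miR-322 match were Col12a1, Col1a1, Col22a1, Col24a1, Col25a1, Col4a3, Col4a4, Col5a1 and Col9a3. Windows of the 4 most abundant of them are printed below on the strand of the mRNA, with the match in capitals, because these genes moved in both directions. All lie in the 3'UTR, and the position given is that of the first matching base counted from 1 at the start of the 3'UTR. A match of 7 bases is a description of the sequence and not a measured binding site.
Col12a1, position 21, chr9:79601130-79601159, minus strand: taagtctccagTGCTGCTtacagtttgaaa
Col5a1, position 2261, chr2:28039266-28039295, plus strand: aattgaacaaaTGCTGCTgaaaatacacac
Col1a1, position 1221, chr11:94952829-94952858, plus strand: ccctcccctctTGCTGCTgctccctcccct
Col24a1, position 961, chr3:145551656-145551685, plus strand: tttggaaatttTGCTGCTgttttaaattat

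The Col1a1 window holds a second match that overlaps the first and begins at position 1224 of the 1423 bases of its 3'UTR. Col12a1 also has a second match, outside its printed window, at position 2076 of the 2178 bases of its 3'UTR. Among these 4 genes, Col12a1 and Col5a1 fell while Col1a1 and Col24a1 rose, with the values given below. The 7 tested collagen genes with the miR-322 match had a median log2 fold change of 0.53, and those without it -0.47. For all tested genes with and without it, the medians were 0.014 and -0.024. Of the 7 genes, Col25a1, Col9a3 and Col4a4 averaged under 1 CPM (counts scaled to library size) in both groups, at 4.5, 0.75 and 0.08. The others were the 4 printed above, Col12a1, Col5a1, Col1a1 and Col24a1, at -2.34, -0.73, 0.53 and 2.47. The median of 0.53 thus depends in part on genes with few reads. It does not show that genes with the match rose as a set. For the miR-29a match, the median was -0.74 for the 20 tested collagen genes with it and -0.13 for those without it, beside 0.002 and -0.017 for all tested genes. Windows around the miR-29a match are shown as examples of both directions for 4 genes whose values are also given below, Col3a1, Col4a1, Col1a1 and Col4a5, of which the former pair fell and the latter pair rose.
Col3a1, position 235, chr1:45348971-45349000, plus strand: aaatgtctcaaTGGTGCTataataaataaa
Col4a1, position 33, chr8:11199750-11199779, minus strand: ccgtcacaacaTGGTGCTactcccccccct
Col1a1, position 919, chr11:94952527-94952556, plus strand: gaaggaatttcTGGTGCTatagaagctgag
Col4a5, position 129, chrX:141688242-141688271, plus strand: gctcccaccaaTGGTGCTaatatcctctat

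Of the 44 collagen genes, 35 passed the expression filter and were tested, 12 were called lower and 5 were called higher in the miR-322/-503 libraries. A gene was called when its log2 fold change was beyond 1 in either direction and its p-value in the quasi-likelihood test of edgeR, adjusted over all 18140 tested genes, was under 0.05. The called shares were 34.3% of tested collagen genes lower, where 5.29% of all tested genes were called lower, and 14.3% higher, where 4.59% of all tested genes were called higher. With the adjusted p-value alone, 17 collagen genes were lower (48.6%, against 15.5% of all tested genes) and 7 were higher, where 13.2% of all tested genes were higher, while 11 were not past the threshold. The number called higher was 2 with limma on TPM, which did not test 3 of the low genes, and 3 without miR-322/-503 replicate 2. These shares of all tested genes are also the background of the counts by class below. The median log2 fold change of the 35 genes was -0.29, and that of all tested genes was -0.007. CPM values are counts scaled to library size, and 28 tested collagen genes averaged 1 CPM or more in at least 1 group. Among these, 12 were called lower and 4 called higher, with a median of -0.74. Of those called higher, Col24a1, Col4a6 and Col28a1 averaged 0.918, 0.391 and 0.405 CPM in the control. They reached 1 CPM only in the miR-322/-503 group, so the count of 4 depends in part on the change itself. The 9 genes that were not tested were Col2a1, Col4a3, Col6a6, Col9a1, Col9a2, Col13a1, Col19a1, Col22a1 and Col26a1. Of these, Col6a6, Col9a1 and Col9a2 had no counts in any library.

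**Figure D1:**
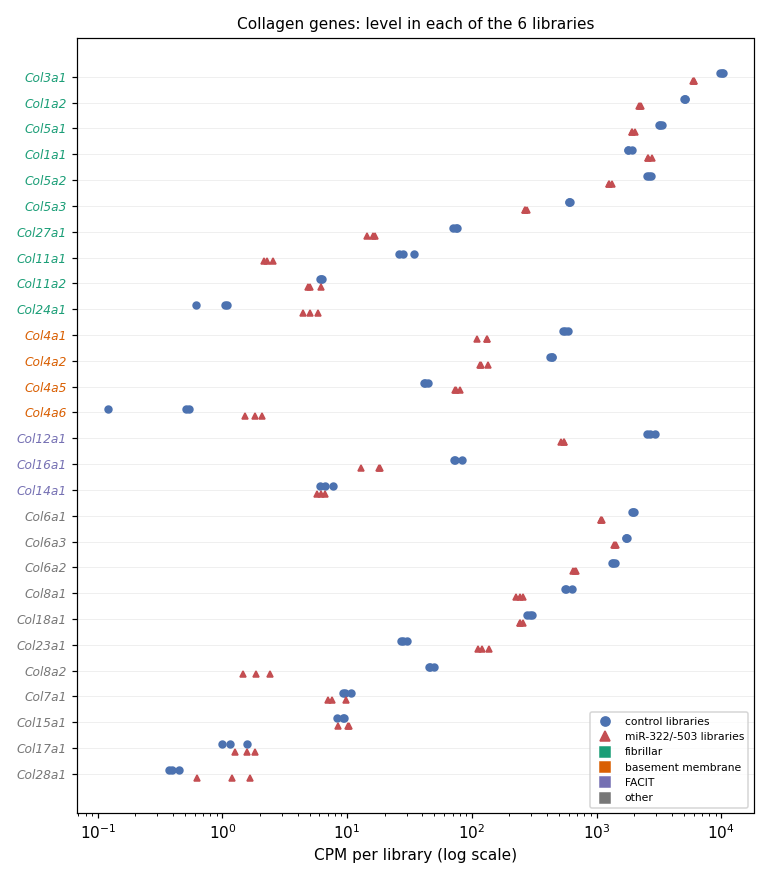
Level of the 28 tested collagen genes that averaged 1 CPM or more in a group. Each row is a gene, colored by class, and each point is 1 of the 6 libraries (circles, 3 control; triangles, 3 miR-322/-503) on a log axis of CPM. The most abundant genes sit to the left of their control points with miR-322/-503, with Col1a1 to the right at 2563 to 2795 CPM.

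Summed over all 44 genes, the collagen level in TPM (a level per transcript length and library size) was 11342, 11074 and 11350 in the control libraries and 6526, 6648 and 6094 in the miR-322/-503 libraries. The groups did not overlap, and the mean with miR-322/-503 was 0.571 times the control mean (6422 ± 291 against 11255 ± 157, SD, n = 3). Collagen mRNA thus made up 1.13% of all TPM in the control and 0.642% with miR-322/-503. The fibrillar sum went from 7934 ± 160 to 4742 ± 222 TPM and the sum of the other types from 2409 ± 19.4 to 1466 ± 60.4 TPM. The basement membrane sum went from 308 ± 6.83 to 97.5 ± 10.6 TPM, or 0.317 times. The FACIT sum showed the lowest ratio of the 4 classes, from 604 ± 26.3 to 117 ± 7.63 TPM, or 0.193 times. Col3a1 had the highest TPM among the collagen genes in every library, with 30.7% ± 0.788 of collagen TPM in the control and 31.6% ± 0.738 with miR-322/-503. The share of Col1a1 went from 5.36% ± 0.149 to 13.2% ± 0.471, while that of Col1a2 went from 17.3% ± 0.426 to 13.1% ± 0.334.

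**Figure D2:**
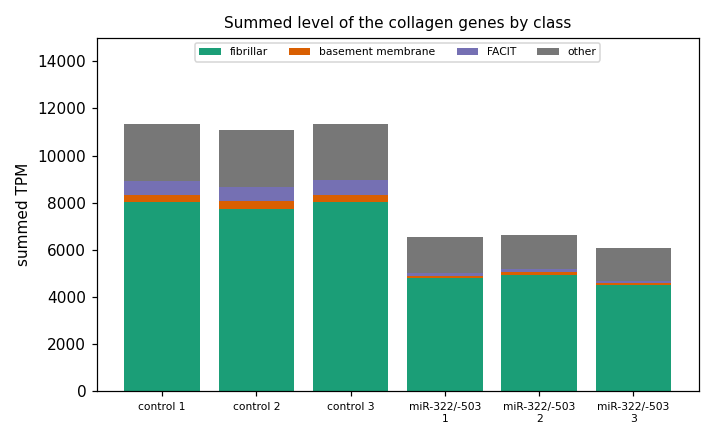
Summed TPM of the collagen genes in each of the 6 libraries, stacked by class from 0. The control bars reach 11074 to 11350 TPM and the miR-322/-503 bars reach 6094 to 6648 TPM.

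The fibrillar class held most of the collagen mRNA. Of its 11 members, 10 were tested, 7 were lower and 2 were higher at an adjusted p-value under 0.05 (15.5% and 13.2% of all tested genes), and the median log2 fold change was -0.89. Col3a1, the chain of type III collagen in reticular fibers, had 10093, 9709 and 10278 CPM in the control and 6010, 5908 and 6050 CPM with miR-322/-503. Col1a2, the α2 chain of type I collagen, had 5151, 5033 and 5091 CPM in the control and 2179, 2279 and 2220 CPM with miR-322/-503. All miR-322/-503 libraries were below all control libraries for both genes. Col3a1 fell by 0.74 on the log2 scale (standard error, SE, 0.04, adjusted p = 1.12e-05) and Col1a2 fell by 1.19 (SE 0.04, adjusted p = 2.33e-06).

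Col1a1, the α1 chain of type I collagen, went the other way. It had 1800, 1789 and 1916 CPM in the control and 2563, 2795 and 2598 CPM with miR-322/-503, with no overlap, and a log2 fold change of 0.53 (SE 0.05, adjusted p = 0.000323). Type I collagen is usually assembled from α1 chains and an α2 chain in the same molecule. The ratio of Col1a1 to Col1a2 in TPM was 0.298, 0.307 and 0.326 in the control libraries and 1.0, 1.06 and 0.963 in the miR-322/-503 libraries. The ratio was 3.25-fold higher with miR-322/-503 and the 2 groups stood far apart compared with their spread.

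The same ratio was taken for 3 other pairs of chains that join in a molecule, and the 4 ratios were tested with an exact two-sided permutation test over the 6 libraries, whose smallest possible p is 0.1. Col1a1 to Col1a2 reached that smallest p of 0.1 (0.133 adjusted over the 4 pairs). Col4a1 to Col4a2 went from 1.27 ± 0.0418 to 0.994 ± 0.0942 (SD, n = 3), with the same exact p of 0.1 (0.133 adjusted). Col6a1 to Col6a2 went from 1.5 ± 0.0303 to 1.69 ± 0.0402 (SD, n = 3), again with an exact p of 0.1 (0.133 adjusted). Col5a1 to Col5a2 went from 1.24 ± 0.159 to 1.52 ± 0.195 (SD, n = 3), where the groups overlapped and the exact p was 0.2 (0.2 adjusted). With 3 libraries against 3, none of the ratios could pass a threshold of 0.05. In size, the change of 1.70 on the log2 scale for type I stood beside -0.35, 0.18 and 0.30 for types IV, VI and V.

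**Figure D3:**
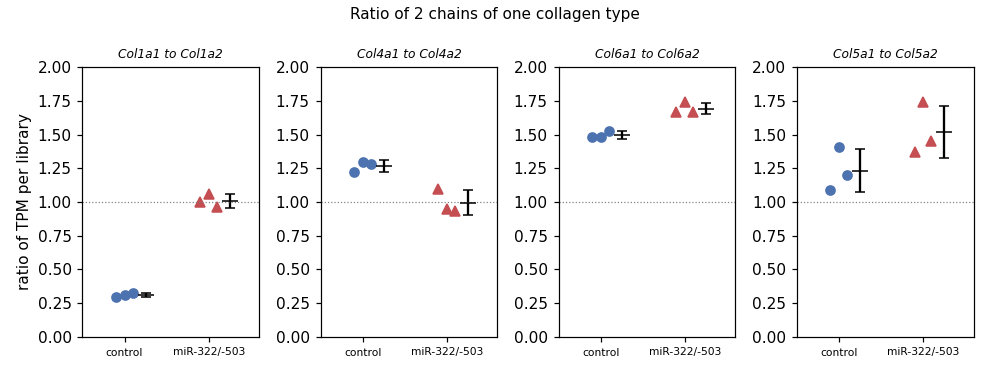
Ratio of the TPM of 2 chains of one collagen type in each library (circles, control; triangles, miR-322/-503), with the mean and SD of 3 libraries in black and a dotted line at 1. The type I ratio lies at 0.298 to 0.326 in the control and at 0.963 to 1.06 with miR-322/-503, while the other 3 ratios differ by less.

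Type V collagen is the minor fibrillar collagen that nucleates type I fibers, and all of its 3 genes fell. Col5a1 had 3139, 3241 and 3368 CPM in the control and 1914, 2037 and 1934 CPM with miR-322/-503, and it fell by 0.73 on the log2 scale (SE 0.05, adjusted p = 4.17e-05). Col5a2 had 2732, 2516 and 2636 CPM in the control and 1318, 1265 and 1263 CPM with miR-322/-503, and it fell by 1.04 (SE 0.05, adjusted p = 9.92e-06). Col5a3 had 601, 606 and 611 CPM in the control and 269, 276 and 266 CPM with miR-322/-503, and it fell by 1.16 (SE 0.05, adjusted p = 6.07e-06). In each of these genes the miR-322/-503 libraries lay together, well below the control libraries. Col5a2 and Col3a1 are neighbors on chromosome 1, tail to tail with 24614 bases between them.

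Among the less abundant fibrillar genes, Col11a1 had the largest fall. Col11a1 encodes a chain of the cartilage-type XI collagen and had 27.9, 26.0 and 34.3 CPM in the control and 2.17, 2.28 and 2.54 CPM with miR-322/-503. It was 12.6-fold lower, a log2 fold change of -3.66 (SE 0.14, adjusted p = 4.16e-06). Col11a2, another type XI chain, had 6.22, 6.26 and 6.06 CPM against 6.22, 4.84 and 5.08 CPM, and its log2 fold change of -0.20 was not past the threshold (adjusted p = 0.314). Its groups overlapped, and its direction turned with limma on TPM. Col27a1, a fibrillar collagen of cartilage, had 70.5, 75.5 and 74.6 CPM in the control and 16.8, 16.2 and 14.5 CPM with miR-322/-503, and it fell by 2.21 on the log2 scale (SE 0.08, adjusted p = 3.1e-06). Col24a1, another minor fibrillar collagen, was the exception in direction beside Col1a1. It had 1.05, 0.618 and 1.09 CPM in the control and 5.08, 5.84 and 4.39 CPM with miR-322/-503, a log2 fold change of 2.47 (SE 0.25, adjusted p = 0.00034). An antisense transcript and a transcript on the same strand are annotated within Col24a1, and the sources used here do not say whether counting used the strand.

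**Figure D4:**
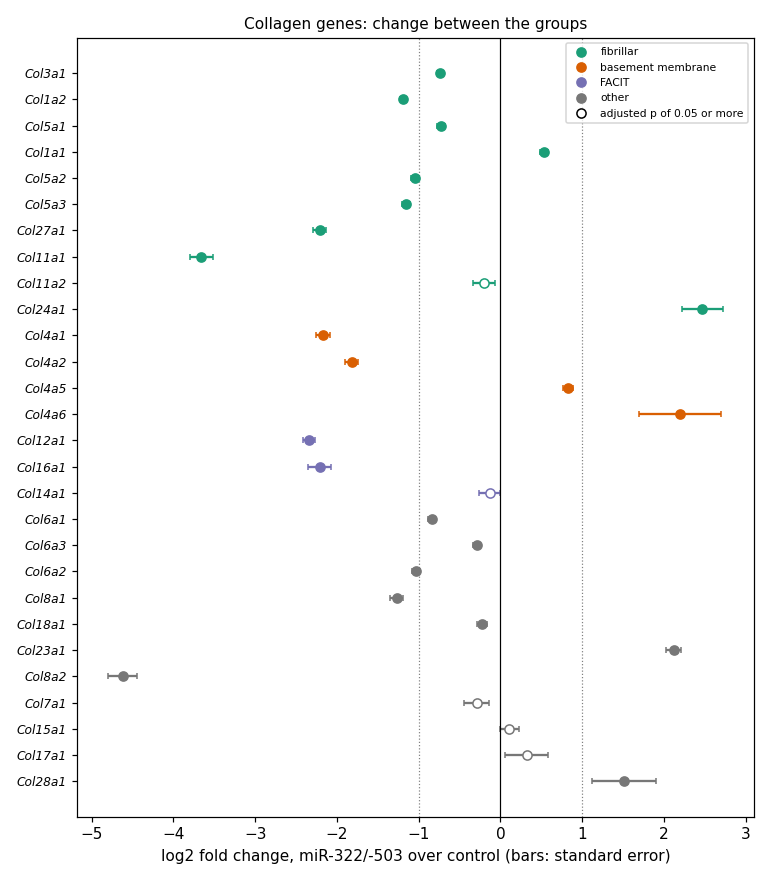
Log2 fold change with its standard error for the 28 tested collagen genes that averaged 1 CPM or more in a group, miR-322/-503 over control, colored by class. Filled points passed an adjusted p-value of 0.05 and dotted lines mark log2 fold changes of -1 and 1. The changes range from -4.62 for Col8a2 to 2.47 for Col24a1.

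The basement membrane class split by gene pair. Col4a1 and Col4a2 encode the chains of the common type IV molecule, and both fell. Col4a1 had 536, 587 and 557 CPM in the control and 132, 132 and 109 CPM with miR-322/-503, a log2 fold change of -2.17 (SE 0.09, adjusted p = 5.5e-06). Col4a2 had 436, 442 and 422 CPM in the control and 118, 135 and 116 CPM with miR-322/-503, a log2 fold change of -1.82 (SE 0.08, adjusted p = 5.5e-06). For both genes the highest miR-322/-503 library was far below the lowest control library.

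Col4a5 and Col4a6, which encode chains of the minor type IV molecules, rose. Col4a5 had 44.7, 42.0 and 41.5 CPM in the control and 80.4, 73.7 and 74.5 CPM with miR-322/-503, a log2 fold change of 0.83 (SE 0.06, adjusted p = 7.24e-05). Col4a6 was near the lower limit, with 0.543, 0.121 and 0.509 CPM in the control and 2.08, 1.81 and 1.52 CPM with miR-322/-503, a log2 fold change of 2.20 (SE 0.50, adjusted p = 0.0146). The groups did not overlap for either gene, although control replicate 2 was low for Col4a6. Even with the rise, the level of Col4a5 stayed below that of Col4a1, at 24.4 ± 1.95 TPM against 36.1 ± 5.32 TPM (SD, n = 3) in the miR-322/-503 libraries. In the control the corresponding levels were 14.4 ± 0.79 and 164 ± 5.57 TPM. Col4a4 stayed under 0.5 CPM in every library with overlapping groups (adjusted p = 0.959), and Col4a3 was not tested.

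These type IV genes are arranged head to head. Col4a1 and Col4a2 overlap by 22 bases at their starts on chromosome 8, and the starts of Col4a6 and Col4a5 are 1308 bases apart on chromosome X. The 300 bases around each start (250 before and 50 after) are printed because the members of each pair moved in the same direction and the pairs moved in opposite directions. They are RefSeq sequence of GRCm38.p6 on the strand of the gene, and the start is that of RefSeq, which for Col4a5 differs from the GENCODE start used for the distance between the genes. Capitals mark 3 motifs found on either strand. These are the CCAAT motif (ATTGG where it lies on the other strand), the GC box GGGCGG (there read as CCGCCC) and the TATA box TATAAA (there read as TTTATA). The windows of Col4a1 and Col4a2 share bases, so that matches there can be the same ones read on opposite strands.
Col4a1, chr8:11312777-11313076, minus strand: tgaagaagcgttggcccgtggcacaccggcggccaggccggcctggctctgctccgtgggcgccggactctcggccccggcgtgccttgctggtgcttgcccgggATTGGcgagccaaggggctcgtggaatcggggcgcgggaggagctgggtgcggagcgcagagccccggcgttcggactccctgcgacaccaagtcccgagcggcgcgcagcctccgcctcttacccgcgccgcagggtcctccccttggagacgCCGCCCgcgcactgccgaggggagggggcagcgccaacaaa
Col4a2, chr8:11312555-11312854, plus strand: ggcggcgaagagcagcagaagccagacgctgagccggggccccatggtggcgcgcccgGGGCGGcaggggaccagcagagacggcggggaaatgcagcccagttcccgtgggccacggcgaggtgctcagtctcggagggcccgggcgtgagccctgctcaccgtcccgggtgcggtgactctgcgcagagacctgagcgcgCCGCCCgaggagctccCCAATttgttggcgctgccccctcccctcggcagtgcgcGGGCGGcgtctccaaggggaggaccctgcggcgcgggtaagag
Col4a5, chrX:141475169-141475468, plus strand: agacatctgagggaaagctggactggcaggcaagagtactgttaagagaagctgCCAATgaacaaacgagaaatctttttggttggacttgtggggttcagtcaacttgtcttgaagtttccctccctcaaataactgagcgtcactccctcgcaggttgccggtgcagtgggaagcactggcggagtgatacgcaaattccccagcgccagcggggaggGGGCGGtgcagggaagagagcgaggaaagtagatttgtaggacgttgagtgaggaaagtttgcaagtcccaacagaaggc
Col4a6, chrX:141474027-141474326, minus strand: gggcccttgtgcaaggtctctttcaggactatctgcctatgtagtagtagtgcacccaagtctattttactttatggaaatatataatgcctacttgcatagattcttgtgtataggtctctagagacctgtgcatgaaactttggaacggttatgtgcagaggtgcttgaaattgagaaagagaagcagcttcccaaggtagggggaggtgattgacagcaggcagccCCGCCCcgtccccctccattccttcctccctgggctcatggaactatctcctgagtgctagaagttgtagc

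The base composition differed between the pairs, with a GC content of 74.0% for Col4a1 and 73.7% for Col4a2, compared with 52.7% for Col4a5 and 48.3% for Col4a6. CCAAT was found in the windows of Col4a1, Col4a2 and Col4a5, GGGCGG in all 4 windows, and TATAAA in none of these 4 windows. A promoter window was found for 35 of the 44 collagen genes, 38 windows in all. CCAAT occurred in 34.2% of collagen windows and in 37.4% of all 32851 windows, and TATAAA in 13.2% and 13.6%. GGGCGG occurred in 60.5% of collagen windows and in 35.7% of all windows. A promoter window was not at hand for Col12a1, Col14a1, Col1a1, Col22a1, Col26a1, Col2a1, Col4a3, Col5a2 and Col9a3.

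Of the 9 FACIT genes, 5 were tested and 2 were past the threshold, both called lower, as were 5.29% of all tested genes. Col12a1, which bridges fibers and is common in tendon and muscle fascia, had 2538, 2682 and 2918 CPM in the control and 514, 544 and 544 CPM with miR-322/-503. It was 5.08-fold lower, a log2 fold change of -2.34 (SE 0.07, adjusted p = 1.19e-06), and accounted for most of the FACIT sum. Col16a1, a minor FACIT collagen, had 83.2, 72.4 and 73.0 CPM in the control and 18.3, 18.1 and 12.9 CPM with miR-322/-503, a log2 fold change of -2.21 (SE 0.14, adjusted p = 3.62e-05). Both genes were lower in all 3 miR-322/-503 libraries. Col14a1, a relative of Col12a1, had 7.65, 6.65 and 6.03 CPM in the control and 6.67, 5.72 and 6.12 CPM with miR-322/-503, with overlapping groups (adjusted p = 0.504). Col20a1 and Col9a3 were under 1 CPM and were not past the threshold (adjusted p = 0.111 and 0.449).

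Type VI collagen forms beaded filaments next to the muscle basement membrane, and its 3 abundant chains fell to different degrees. Col6a1 had 1937, 1985 and 1945 CPM in the control and 1091, 1082 and 1102 CPM with miR-322/-503, a log2 fold change of -0.84 (SE 0.04, adjusted p = 1.23e-05). Col6a2 had 1360, 1395 and 1322 CPM in the control and 674, 643 and 682 CPM with miR-322/-503, a log2 fold change of -1.03 (SE 0.05, adjusted p = 1.12e-05). Col6a3 had 1718, 1722 and 1754 CPM in the control and 1443, 1380 and 1411 CPM with miR-322/-503, a log2 fold change of -0.29 (SE 0.04, adjusted p = 0.00214). For these 3 genes the groups did not overlap, but the fall of Col6a3 was the smallest of them. Col6a1 and Col6a2 lie in tandem on chromosome 10, 85161 bases apart, while Col6a3 lies on chromosome 1. Col6a4 was under 1 CPM in every library with overlapping groups (adjusted p = 0.331). Col6a5 came to 8 estimated counts over the control libraries and 44 over the miR-322/-503 libraries, a ratio of 5.65 with a 95% counting interval from 1.23 to 52.5 on read pairs, and was not past the threshold (adjusted p = 0.181), although it was called higher without control replicate 1.

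The network-forming type VIII genes held the largest fall of any collagen gene with at least 1 CPM. Col8a2 had 46.3, 45.0 and 49.9 CPM in the control and 1.85, 2.41 and 1.46 CPM with miR-322/-503. It was 24.7-fold lower, a log2 fold change of -4.62 (SE 0.18, adjusted p = 4.81e-06). Col8a1, the other chain of type VIII, was more abundant, with 573, 556 and 636 CPM in the control and 244, 227 and 259 CPM with miR-322/-503, and it fell by 1.27 on the log2 scale (SE 0.08, adjusted p = 2.87e-05). For both genes all miR-322/-503 libraries were below all control libraries. Col10a1, the network collagen of hypertrophic cartilage, lies within Nt5dc1 on the opposite strand, was at most 1.0 CPM and was not past the threshold (adjusted p = 0.1), although it was called higher without control replicate 1.

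Transmembrane collagens span the cell surface membrane, and 2 of the 3 tested genes were called higher, as were 4.59% of all tested genes. Col23a1 had 28.0, 27.0 and 30.0 CPM in the control and 112, 137 and 121 CPM with miR-322/-503, a log2 fold change of 2.12 (SE 0.09, adjusted p = 5.31e-06). It was the most abundant of the 5 genes called higher, and every miR-322/-503 library was above every control library. Col25a1 came to 3 estimated counts over the control libraries and 74 over the miR-322/-503 libraries. These stand for 1 and 19 read pairs, a ratio of 19.5 with a 95% counting interval from 3.11 to 812 (adjusted p = 0.0147), and its call was lost without control replicate 1 or without miR-322/-503 replicate 2. Col17a1, the hemidesmosome collagen, had 1.16, 0.993 and 1.58 CPM in the control and 1.25, 1.83 and 1.58 CPM with miR-322/-503, with overlapping groups (adjusted p = 0.421). Col13a1, known from the neuromuscular junction, was not tested.

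Among the remaining types, Col18a1, a basement membrane proteoglycan that is the source of endostatin, had 304, 279 and 290 CPM in the control and 258, 244 and 241 CPM with miR-322/-503. The groups did not overlap, but the log2 fold change was only -0.23 (SE 0.06, adjusted p = 0.0262), and it was not past the threshold in 4 of the 6 fits that each left out a library (adjusted p between 0.0546 and 0.0898). Slc19a1 overlaps Col18a1 on the other strand. Col15a1, its relative, had 9.21, 8.25 and 9.50 CPM against 10.4, 10.2 and 8.48 CPM, with overlapping groups (adjusted p = 0.538). Col7a1, the anchoring fibril collagen, had 10.8, 9.18 and 9.59 CPM against 9.75, 6.96 and 7.53 CPM, again with overlapping groups (adjusted p = 0.201). Col28a1 had 0.375, 0.448 and 0.391 CPM in the control and 1.65, 1.19 and 0.625 CPM with miR-322/-503, a log2 fold change of 1.51 (SE 0.39, adjusted p = 0.025). Its miR-322/-503 libraries were spread widely, and the call was lost in 5 of the 6 fits that left out a library (adjusted p between 0.0627 and 0.0842).

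The position of the members in the genome was read beside these changes. On chromosome 9, the median log2 fold change of the 1009 tested genes other than collagens was -0.27, and on chromosome 4 that of 1042 genes was -0.18. On the other chromosomes with tested collagen genes this median lay between -0.04 and 0.13. Chromosome 9 carries Col12a1 and Col5a3, and chromosome 4 carries Col16a1, Col27a1 and Col8a2, so that 5 of the 12 genes called lower lie on these 2 chromosomes. The other tested collagen genes there were not past the threshold. These were Col6a4, Col6a5 and Col7a1 on chromosome 9 and Col15a1 on chromosome 4. Of all 959 genes called lower, 811 lay outside these 2 chromosomes, as did 16080 of all 18140 tested genes. The 50 tested genes nearest to each of the 5 genes called lower there were also read. Their median was -0.13 for Col12a1, -0.32 for Col5a3, -0.29 for Col16a1, -0.05 for Col27a1 and -0.21 for Col8a2. With the genes of both chromosomes left out, 7 of 26 tested collagen genes were called lower (26.9%, against 5.04% of the remaining genes) and 5 were called higher (19.2%, against 4.83%). The part of the chromosome-wide shift in the changes of single genes was not tested.

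Collagen chains are hydroxylated and folded in the endoplasmic reticulum, trimmed outside the cell and then cross-linked. Of 30 genes for these steps, 27 were tested, 20 were lower and 1 was higher at an adjusted p-value under 0.05, and the median log2 fold change was -0.73. Of these, 6 were called lower and 1 called higher. Over all tested genes, 15.5% were lower and 13.2% higher, and 5.29% were called lower and 4.59% called higher. Tll1, a procollagen C-proteinase, had 5.52, 2.98 and 3.67 CPM in the control and 0.430, 0.307 and 0.425 CPM with miR-322/-503 (log2 fold change -3.38, SE 0.30, adjusted p = 0.000173). P4ha3, a prolyl hydroxylase subunit, had 50.8, 55.0 and 53.9 CPM in the control and 18.8, 18.6 and 18.7 CPM with miR-322/-503 (log2 fold change -1.51, SE 0.07, adjusted p = 6.34e-06). The cross-linking oxidases Loxl4 and Lox fell as well. Loxl4 went from 65.1 ± 1.82 to 24.3 ± 2.52 CPM (SD, n = 3; adjusted p = 2.89e-05 in edgeR's test across all genes). Lox, the more abundant of these oxidases, went from 2060 ± 176 to 803 ± 31.3 CPM (SD, n = 3; adjusted p = 1.64e-05 in edgeR's test). The exception was Adamts14, a procollagen N-proteinase, named after its values were seen because it was the only one past the threshold to rise, from 32.0 ± 1.79 to 66.0 ± 6.47 CPM (SD, n = 3; adjusted p = 0.000121 in edgeR's test). The 6 tested genes not past the threshold included Bmp1, P4ha1 and P4ha2, all more abundant than Tll1 and P4ha3. Bmp1 was at 315 ± 5.41 against 313 ± 11.1 CPM with miR-322/-503 (SD, n = 3). P4ha1 was at 526 ± 5.77 against 470 ± 16.7 CPM and P4ha2 at 168 ± 7.51 against 193 ± 16.4 CPM.

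**Figure D5:**
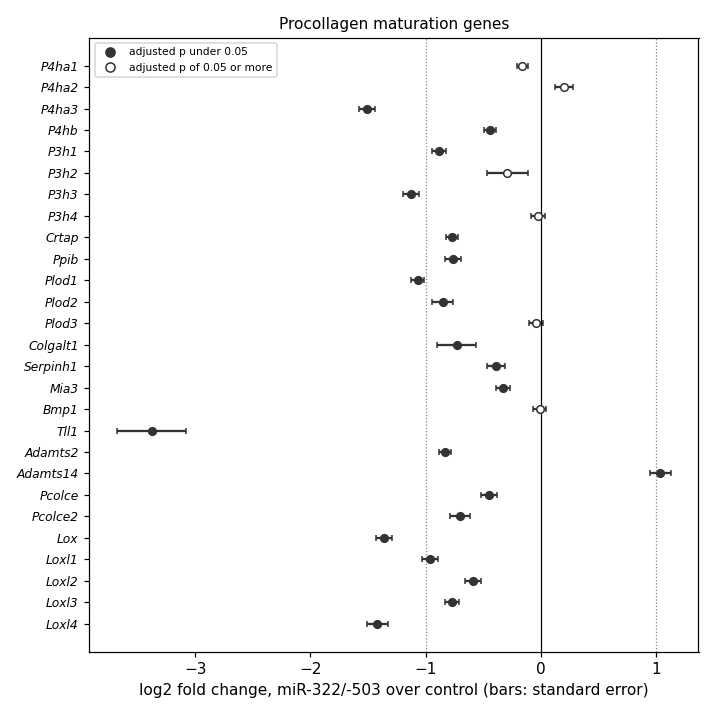
Log2 fold change with its standard error for the 27 tested genes of procollagen maturation, miR-322/-503 over control. Filled points passed an adjusted p-value of 0.05, with 20 to the left of 0 and 1, Adamts14, to the right.

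Receptors and proteases of collagen were counted in the same way. Of 10 collagen receptor genes, 7 were tested, 2 were lower and 2 were higher at an adjusted p-value under 0.05, where 15.5% of all tested genes were lower and 13.2% higher. The integrin subunit Itga1, which pairs with Itgb1 to bind collagen, had 20.4, 19.9 and 21.9 CPM in the control and 0.472, 0.547 and 0.452 CPM with miR-322/-503 (log2 fold change -5.40, SE 0.12, adjusted p = 6.06e-07). Itga11, a subunit for fibrillar collagen, had 54.2, 54.2 and 57.8 CPM in the control and 8.70, 8.59 and 9.36 CPM with miR-322/-503 (log2 fold change -2.64, SE 0.08, adjusted p = 1.31e-06). Itga10 and the receptor kinase Ddr2 rose, with log2 fold changes of 0.77 and 0.44 (adjusted p = 0.000655 and 0.00274). Of 8 collagenase and gelatinase genes, 4 were tested and only Mmp2 passed, a gelatinase that also degrades type IV collagen. Mmp2 had 1378, 1334 and 1293 CPM in the control and 209, 197 and 185 CPM with miR-322/-503 (log2 fold change -2.76, SE 0.07, adjusted p = 6.56e-07).

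Markers of the cell types that the cultures could hold were read beside the collagen genes, and their counts at an adjusted p-value under 0.05 stand against 15.5% lower and 13.2% higher of all tested genes. Myotube genes were present in both groups, with 5 of 10 higher and 1 lower and a summed level of 2799 to 3143 CPM in the control and 3332 to 3345 CPM with miR-322/-503. Of 5 myoblast markers, 4 were higher. Of 8 fibroblast markers, 6 were tested, 3 were lower and 1 was higher, and their summed level of 505 to 633 CPM in the control overlapped that of 492 to 711 CPM with miR-322/-503. Without Ly6a, which varied most between libraries, the sums were 451 to 477 CPM in the control and 376 to 384 CPM with miR-322/-503 and did not overlap, a split made after the values were seen. Among them, Lum went from 29.5 ± 2.14 to 3.21 ± 1.02 CPM, Pdgfra from 36.4 ± 1.33 to 21.7 ± 1.8 CPM and Dcn from 370.0 ± 14.9 to 319 ± 6.09 CPM (SD, n = 3), all lower. Dpt was higher, Pi16 and Ly6a were not past the threshold, Tcf21 had no counts in any library and Thy1 was under 0.1 CPM. Of 6 tendon and cartilage markers, 3 of 5 tested were lower and 1 was higher, and the summed level of 106 to 119 CPM overlapped that of 90.8 to 109 CPM, with Acan at 0. Of 6 smooth muscle and pericyte markers, 3 were lower and 1 was higher, and the summed level went from 6048 to 6338 CPM down to 2899 to 3110 CPM, nearly all of it Acta2, which myoblasts also express. Endothelial markers summed to at most 5.07 CPM and leukocyte markers to at most 4.29 CPM, with Emcn, Adgre1 and Cd3e at 0. Of 5 endothelial markers only Tek was tested, and it was higher (1.13 ± 0.159 against 4.2 ± 0.64 CPM, SD, n = 3). Of 5 leukocyte markers 2 were tested, of which Lyz2 was lower (1.27 ± 0.481 against 0.0222 ± 0.0384 CPM, SD, n = 3) and Cd68 was not past the threshold. The part of these cell types in the collagen changes was not tested. The microRNA genes themselves could not be followed, since Mir322 and Mir503 had at most 17 estimated counts in any library and were not tested.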

How the data were processed

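Reads were trimmed by the authors (Trim Galore), mapped to the GRCm38 genome (HISAT2) and summarized per gene (StringTie). Versions, annotation and strand setting are not given in the sources used here. The deposited matrix gives unnormalized estimated counts, as whole numbers. For each library, a further deposited table gives the coverage signal, FPKM and TPM of each gene. TPM was used to compare levels between genes. One estimated count stood for about 75 covered bases and a read pair for about 4 counts, so the libraries held 18383021 to 23039347 read pairs, and the counting intervals were taken on read pairs and cover counting error only.

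Counts were tested with edgeR 4.0.16 in R 4.3.3 (filterByExpr, TMM with factors between 0.977 and 1.035, glmQLFit and glmQLFTest, Benjamini-Hochberg adjustment over 18140 genes), without covariates. The SE was derived from the test, as the size of the log2 fold change divided by the square root of its F statistic. CPM is the count scaled to the TMM-normalized library size. The cut-offs were an adjusted p-value of 0.05 and a log2 fold change of 1. DESeq2 1.42.0, the test used in the study, and limma 3.58.1 on log2(TPM + 1) and log2(TPM + 0.1), for genes with a TPM of at least 1 in 3 libraries, were alternatives, as were RLE factors, other filters, counts per read pair, a replicate block and leaving out each library. Leaving out chromosomes 4 and 9 and the values of the 50 nearest genes were added after the data were seen. The computations were tested on simulated data. Same-numbered libraries had correlations of 0.131, 0.0687 and 0.0451, so the numbers were not taken to pair them.

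The collagen genes, pathway lists, markers and motifs were chosen with earlier results of these data known. Values were given for each tested collagen gene that averaged 1 CPM or more in a group, and for at most 4 genes past the threshold, by size of change, in each pathway list. Adamts14, Bmp1, P4ha1 and P4ha2 were named beside this rule. Coordinates and 3'UTRs are those of GENCODE M21, which gave the same position for all 44 genes, and promoter and microRNA sequences are those of RefSeq. Of the 3'UTR windows with a seed match, only examples are printed.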

Additional observations from a re-analysis of the deposited data

How the results depend on the processing

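The number of collagen genes called lower was between 12 and 13 in all 14 other fits of the genes, and changed to 7 when the genes of chromosomes 4 and 9 were left out, which leaves fewer genes by construction. The number called higher was 2 with limma on log2(TPM + 1) and 2 with limma on log2(TPM + 0.1), and the number higher at an adjusted p-value under 0.05 was 4 in both, where Col4a6, Col25a1 and Col28a1 fell below the TPM minimum and were not tested. Over the fits that each left out a library, the counts lay between 12 and 12 (called lower), 3 and 5 (called higher, with 3 without miR-322/-503 replicate 2), 16 and 17 (lower) and 5 and 7 (higher). Without control replicate 1 the 5 genes called higher were Col10a1, Col23a1, Col24a1, Col4a6 and Col6a5, so that Col10a1 and Col6a5 were gained while Col25a1 and Col28a1 were lost. The median log2 fold change of tested collagen genes lay between -0.33 and -0.22 there. It was -0.69 with at least 10 counts in every library, -0.71 with counts per read pair and -0.86 with limma under either pseudocount, settings that tested 30, 30 and 25 collagen genes in place of 35. With the replicate number as a block, 12 genes were called lower and 5 higher, and the median was -0.29, so the block changed no count. The summed collagen level was 0.597 times the control with counts per kilobase in place of TPM, and 0.561 to 0.585 times when a library was left out. The log2 changes of the chain ratios lay between 1.67 and 1.74 (type I), -0.43 and -0.31 (type IV), 0.16 and 0.19 (type VI) and 0.20 and 0.40 (type V) when a library was left out, and kept their direction with counts per kilobase. Among single genes, Col11a2 reversed to 0.05 and 0.06 with limma under the 2 pseudocounts, and the cause was not tested. Genes under 1 CPM rest on few read pairs, and their calls moved with single libraries.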
